A study of Mus musculus with 4 samples.

Results

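The genes described here handle reactive oxygen species, glutathione and zinc: 45 genes taken as a set, namely the NRF2 axis, the thioredoxin system, peroxidases with catalase and superoxide dismutases, glutathione enzymes, the NADPH oxidase, and metallothioneins with zinc transporters. They were followed in dendritic cells (DC), the antigen-presenting cells, grown from bone marrow of C57BL/6 mice. A member was measured where at least 1 probe set, the short probes that together read out a transcript, carried its symbol and no other. This held for 42 of the 45, among 12393 genes measured in all. Prdx1, Prdx5 and Prdx6, peroxiredoxin genes, had no such probe set and are not analysed here. Each gene is given by its brightest probe set, the one with the highest mean signal over the arrays.

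The 4 arrays came from 2 groups of 2: immature DC, and the same kind of DC after modulation by natural killer T (NKT) cells, T cells that recognise lipids presented by CD1d. Both groups are bone marrow DC of that strain and, per the design text, RNA was taken from CD11c cells. How the modulation was done (contact, agents, time) is not given in the sources used here. Nothing says whether arrays of a group came from separate cultures, so the p-values speak of the spread among these 4 arrays alone, and that spread may be technical.

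NRF2, encoded by Nfe2l2, is a transcription factor that KEAP1 holds in the cytoplasm and marks for degradation until oxidants or electrophiles modify KEAP1. NRF2 then enters the nucleus and binds antioxidant response elements (ARE) of genes for glutathione synthesis, thioredoxin reduction and detoxification. In phagocytes and DC the NADPH oxidase makes superoxide, which superoxide dismutases turn into hydrogen peroxide and catalase, glutathione peroxidases and peroxiredoxins remove. Metallothioneins are small cysteine-rich proteins that bind zinc and copper and are induced by metals through the factor MTF1 at metal response elements (MRE).

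Of the 42 members measured, 5 rose and 3 fell from immature to NKT-modulated DC. Higher were Glrx (glutaredoxin), Sod2 (mitochondrial superoxide dismutase), Mt2 (metallothionein), Txnrd1 (thioredoxin reductase) and Srxn1 (sulfiredoxin). Lower were Cat (catalase), Gstp1 (a glutathione S-transferase) and Prdx2 (a peroxiredoxin). Changes are differences of log2(signal + 16) after quantile normalization, and calls are adjusted p under 0.05 in limma, with Benjamini-Hochberg adjustment over all genes. The share of members called was 19.0%, beside 14.0% of all genes. By direction, 11.9% of members were higher against 6.35% of all genes, and 7.14% were lower against 7.63%. The shares of members are of 42 genes, so 1 gene more or less moves them by a few percentage points. Within the roles, 25% of the 4 NRF2 axis genes and of the 4 thioredoxin genes were higher. So were 7.69% of 13 glutathione genes and 14.3% of 7 metal genes. Of 10 genes for peroxidases, catalase and dismutases 10% were higher and 20% lower, and 7.69% of the glutathione genes were lower. Other shares by role were 0%. All these shares rest on at most 2 genes. The arrays of the groups did not overlap for 28 of 42 members (66.7%), beside 56.3% of all genes. The median change was -0.05 over the members and -0.04 over all genes. No test of the whole set was run, and the results that follow concern single genes.

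Across all genes 787 were higher and 945 lower. That split turned with the scaling, with 586 higher and 1150 lower without further normalization, and 983 higher and 780 lower after median scaling. The median change of all genes was 0.06 after median scaling. Relative to the median of all genes, the changes of the 8 called members kept their signs under all 4 scalings, from 1.19 to 1.28 for Glrx down to -0.69 to -0.62 for Cat. With no intensity trend in the variance 1 member, Glrx, was called higher and 0 lower, where limma gave 7 higher and 2 lower at an unadjusted p under 0.05. Transcripts of T cells rose in the same arrays. Of 18 measured T and NKT cell markers 12 rose (66.7%, beside 6.35% of all genes). The summed signal of the 18 was 2203 and 2182 on the immature arrays against 10897 and 8514 on the NKT-modulated ones. In the immature arrays Cd3d, a chain of the CD3 complex, lay near 0, with signals of 5.38 and 5.58, and so did Cd3e, with 10.3 and 7.11. Other markers of the list had signal there, such as Il2ra with 805.5 and 700.2 and Zap70 with 568.2 and 469.4. The 6 markers not called were Cd2, Cd5, Cd6, Lef1, Zap70 and Zbtb16. Markers of macrophages and neutrophils, pooled, summed to 10764 and 12001 against 12692 and 12829. Cd68 and Adgre1 had the largest signals in that sum and were not called. Of the 13, 4 rose (30.8%, beside 6.35% of all genes), namely Mertk, Marco, Ngp and S100a8. Without further normalization 2 rose, and the calls of Ngp and S100a8 were lost. Both were also lost without immature replicate 1 or NKT-modulated replicate 1. The call of Ngp was lost without immature replicate 2 too, and that of S100a8 without NKT-modulated replicate 2. Mertk and Marco kept their calls with each array left out in turn. Cd163 had a change of -0.89 and was not called. The DC markers Itgax and H2-Ab1 were bright on all arrays, with signals from 4643 to 5537 and from 9023 to 11228. Itgax was lower on both NKT-modulated arrays, with a change of -0.19 that was not called. Flt3 had signals of 531.5 and 714.9 against 332.8 and 401.7. Its change of -0.54 was not called either (limma adjusted p = 0.0759). Ciita and H2-Aa, with -0.20 and -0.17, were also not called. The same holds for Zbtb46, H2-Ab1, Csf1r and Cd74, with 0.27, 0.08, 0.04 and 0.02. Of 12 DC markers 3 rose (25%, beside 6.35% of all genes) and 1 fell (8.33%, beside 7.63%). Batf3, Irf4 and Irf8 had 1.74, 1.14 and 0.67. Itgam had -0.71, and from -0.82 to -0.59 with 1 array left out. Its call was lost whichever array was left out. Without the intensity trend the calls of Itgam and Irf8 were both lost. The part of T cell, macrophage or neutrophil RNA in the changes of the members was not tested. In such bulk RNA, fewer cells of a type and less RNA per cell cannot be told apart.

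**Figure D1:**
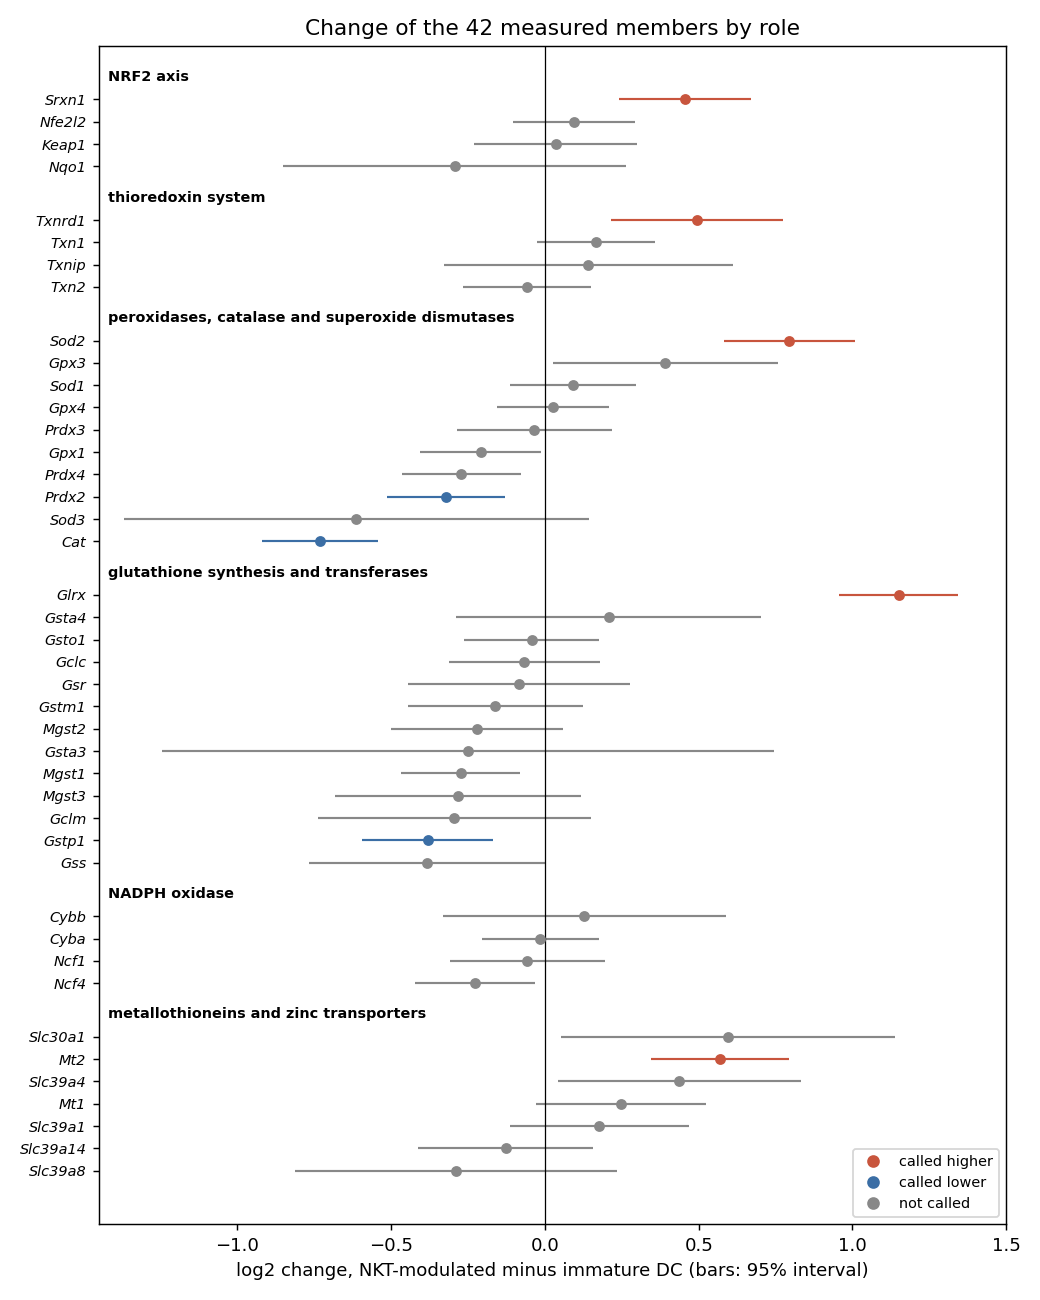
Log2 change of the 42 measured members (horizontal axis, NKT-modulated minus immature DC) by role, with the fitted 95% interval as a bar; colours mark calls. The 5 higher members lie between 0.46 and 1.15 and the 3 lower ones between -0.73 and -0.32. The other 34 lie between -0.61 (Sod3) and 0.60 (Slc30a1), so some of them are further from 0 than called members, with wider intervals.

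Within the NRF2 axis the factor itself and its inhibitor were not called, and 1 of 4 members rose. Nfe2l2 had signals of 5538 and 6173 on the immature arrays against 6428 and 6529 on the NKT-modulated ones. The NKT-modulated signals were above the immature ones by little: the change was 0.09 ± 0.08 (SE, n = 2 arrays a group; the same holds for every change given), with a 95% interval of -0.10 to 0.29 and adjusted p = 0.519. Keap1 had signals of 591.4 and 716.2 against 615.1 and 568.1, which overlap, and a change of 0.04 ± 0.11 (interval -0.23 to 0.30, adjusted p = 0.883). NRF2 is controlled mainly through its protein, which arrays do not measure.

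Nqo1, a quinone reductase often used as a readout of NRF2, was dim. Its signals were 123.2 and 109.7 against 90.7 and 77.2, so both NKT-modulated arrays were the lower ones, with a change of -0.29 ± 0.23 (adjusted p = 0.470). Srxn1 encodes sulfiredoxin, which repairs over-oxidised peroxiredoxins. Its signals were 965.5 and 1070 against 1289 and 1294, without overlap. The change was 0.46 ± 0.09, a 1.37-fold rise (adjusted p = 0.0220). The 3 other probe sets of Srxn1 changed in the same direction, by 0.57, 0.62 and 1.03, and 1 of them was called when p was adjusted over all probe sets. The Srxn1 call was lost whichever array was left out: the change was 0.48 or 0.44 without immature replicate 1 or 2 (adjusted p = 0.0669 and 0.0821), and 0.47 or 0.44 without NKT-modulated replicate 1 or 2 (adjusted p = 0.108 and 0.113). Without further normalization it had 0.34 and adjusted p = 0.117.

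In the thioredoxin system 1 of 4 members rose. Txnrd1 encodes the cytosolic reductase that uses NADPH to keep thioredoxin reduced. Its signals were 2584 and 2403 in the immature arrays against 3709 and 3246, a change of 0.49 ± 0.12 (1.41-fold, adjusted p = 0.0395). Both NKT-modulated arrays were above both immature arrays. The other probe sets had changes of 0.53 and 0.24, neither called, and the mean of all probe sets gave 0.42 with adjusted p = 0.288. The change was 0.36 without immature replicate 2 (adjusted p = 0.110), and 0.43 or 0.55 without NKT-modulated replicate 1 or 2 (adjusted p = 0.184 and 0.104). Txn1, the cytosolic thioredoxin, had signals of 12394 and 11518 against 14473 and 14550. These did not overlap either, and its change was 0.17 ± 0.08 (adjusted p = 0.238), or 0.46 with adjusted p = 0.0343 after median scaling. A second, dimmer Txn1 probe set had 242.3 and 293.1 against 640.0 and 275.4, which overlap. Its change was 0.83 ± 0.35, and the mean of both sets gave 0.50 (limma adjusted p = 0.0994). Txn2, the mitochondrial thioredoxin, and Txnip, which binds and inhibits thioredoxin, had changes of -0.06 ± 0.09 and 0.14 ± 0.19 with overlapping arrays. The other Txn2 probe sets had -0.21 and -0.26. The direction turned with the probe set for Txnip, whose second set had -0.41 ± 0.19 (mean of both -0.13, limma adjusted p = 0.670).

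The sequences before the start of Txnrd1 and of Gclm, the modifier subunit of the enzyme that limits glutathione synthesis, are shown because both are textbook NRF2 targets and only the first was called. They are the 250 bases upstream of an annotated start, from RefSeq on GRCm38.p6, plus strand, 5′ to 3′: chr10:82858956-82859205 for Txnrd1 (1 of 3 starts in the table, the one that holds a match) and chr3:122245307-122245556 for Gclm. Capitals mark letters that match TGACNNNGC, a core of the ARE, here on the strand opposite to the gene in both, 92 bases before the start of Txnrd1 and 134 before that of Gclm.
Txnrd1: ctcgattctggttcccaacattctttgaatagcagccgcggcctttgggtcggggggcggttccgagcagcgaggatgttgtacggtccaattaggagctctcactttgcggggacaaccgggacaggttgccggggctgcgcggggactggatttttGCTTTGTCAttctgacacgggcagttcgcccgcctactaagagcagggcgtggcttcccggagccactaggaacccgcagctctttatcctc
Gclm: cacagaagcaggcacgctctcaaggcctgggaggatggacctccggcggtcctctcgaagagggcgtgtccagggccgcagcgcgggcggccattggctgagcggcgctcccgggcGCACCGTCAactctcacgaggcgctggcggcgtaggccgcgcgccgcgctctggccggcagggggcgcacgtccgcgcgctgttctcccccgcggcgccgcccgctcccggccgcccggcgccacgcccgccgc
The table held such a window for 37 members, and 11 of them had the ARE core on either strand. Of all 32851 windows of that length 10.2% held it, counted by gene 11.5%. Among the 8 called members it was found for 2, Txnrd1 and Mt2. A match is a description of letters and not of binding, and 49 windows of all genes had it overlapping the metal motif given further down.

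In the glutathione group 1 of 13 members, Glrx, rose and 1, Gstp1, fell; the median change was -0.22. The change of Glrx was the largest among the 42 members measured. It encodes glutaredoxin, which uses glutathione to reduce mixed disulfides on protein cysteines. Its signals were 2344 and 2544 on the immature arrays against 5462 and 5481 on the NKT-modulated ones. Both NKT-modulated arrays were more than double both immature arrays. The change was 1.15 ± 0.08, a 2.22-fold rise (adjusted p = 6.06e-04). By size it ranked 600 of 12393 genes. The other Glrx probe set rose by 1.37 ± 0.16, and without 1 array at a time the change stayed between 1.10 and 1.18, with adjusted p between 0.00338 and 0.00909.

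The enzymes that make glutathione were not called. Gclc, the catalytic subunit of glutamate-cysteine ligase, had signals of 777.2 and 848.8 against 682.1 and 699.4 and a change of -0.07 ± 0.10. Its interval of -0.31 to 0.18 gives no direction. A second Gclc probe set, almost as bright, had signals of 844.2 and 917.0 against 579.8 and 590.9. The change of that set was -0.42 ± 0.10 (adjusted p = 0.0531 over all probe sets), and the mean of both gave -0.24 (adjusted p = 0.142). Gclm had signals of 722.1 and 949.7 against 502.9 and 709.6 and a change of -0.29 ± 0.18. Gss, glutathione synthetase, had signals of 343.2 and 454.2 against 242.1 and 275.2, a change of -0.38 ± 0.16 (adjusted p = 0.181). All 3 had both NKT-modulated signals below both immature ones before normalization, and after it those of Gclm overlapped. Before normalization the NKT-modulated arrays also had the lower median signals over all probe sets, 135.6 and 129.0 against 145.7 and 158.1. Gsr, which reduces oxidised glutathione, had a change of -0.08 ± 0.15.

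Among the glutathione S-transferases, which join glutathione to electrophiles, Gstp1 had signals of 2497 and 3069 against 2139 and 1992, without overlap. The change was -0.38 ± 0.09, that is 1.30-fold lower (adjusted p = 0.0373). This call was lost after cyclic loess (adjusted p = 0.0745), without further normalization (0.0810) and after median scaling, where the change was -0.24 (adjusted p = 0.180). It was also lost without immature replicate 1 (change -0.45, adjusted p = 0.0513), immature replicate 2 (-0.32, 0.127), and without NKT-modulated replicate 1 or 2 (-0.40 and -0.35, adjusted p = 0.141 and 0.165). The microsomal transferases Mgst1, Mgst2 and Mgst3 had changes of -0.27 ± 0.08, -0.22 ± 0.11 and -0.28 ± 0.16, each with both NKT-modulated arrays below the immature ones. Of these Mgst1 came closest to a call (adjusted p = 0.0756). Its adjusted p was 0.0399 when only probe sets with a mean signal of at least 100 were tested, but 0.161 after cyclic loess, 0.218 without further normalization and 0.735 after median scaling, where the change was -0.06. Gstm1 and Gsto1, each read by a probe set of a type that can also bind related transcripts, had changes of -0.16 ± 0.12 and -0.04 ± 0.09. Gsta3 and Gsta4 had signals of at most 43.4 and 8.57 on any array, too dim to read a direction, with changes of -0.25 ± 0.41 and 0.21 ± 0.20.

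**Figure D2:**
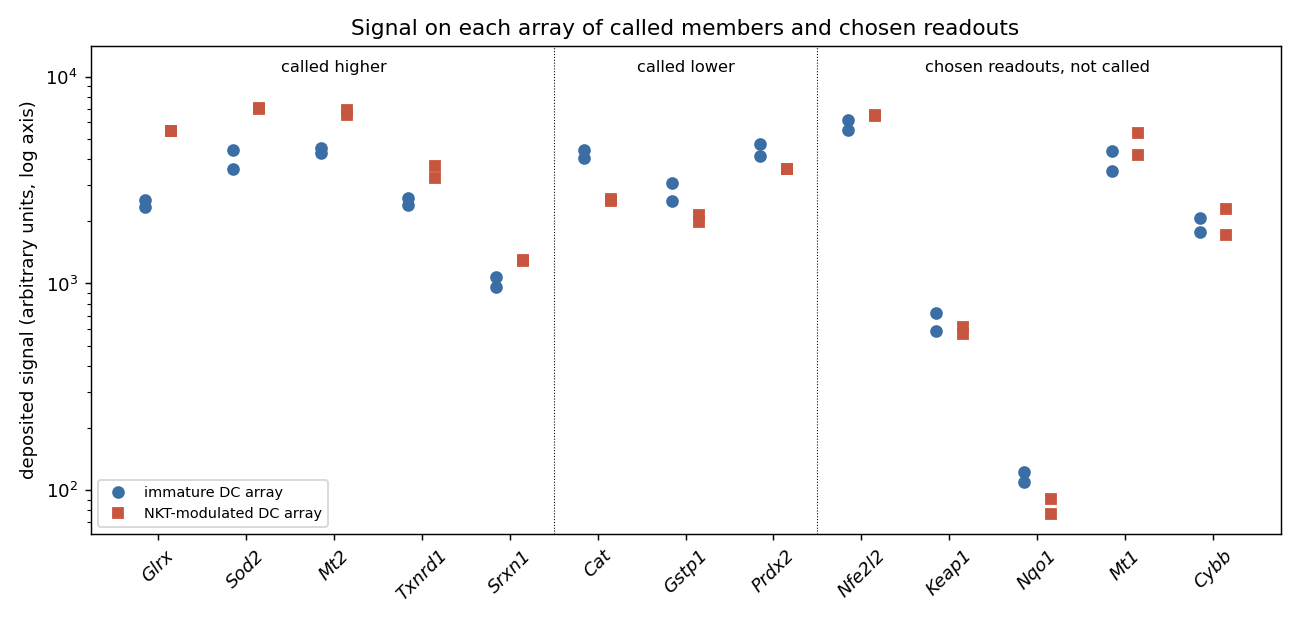
Deposited signal (vertical log axis, arbitrary units) on each array of the 8 called members and of 5 members chosen as readouts that were not called; circles are immature and squares NKT-modulated DC arrays. The arrays of Glrx, Sod2, Mt2, Txnrd1, Srxn1, Cat, Gstp1 and Prdx2 are apart. So are those of Nfe2l2 and Nqo1, which were not called, while those of Keap1, Mt1 and Cybb overlap. Levels of different genes are not comparable, since each probe set has its own response.

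Sod2 rose, and Cat and Prdx2 fell. Of 10 measured genes for peroxidases, catalase and dismutases, 1 was called higher and 2 were called lower (median change -0.12). Sod2, the manganese superoxide dismutase of mitochondria, had signals of 3569 and 4408 on the immature arrays against 7015 and 6987 on the NKT-modulated ones. The groups were well apart, and the change was 0.80 ± 0.09 (1.74-fold, adjusted p = 0.00291). A further bright probe set of Sod2 rose by 0.72 ± 0.08, and a dim one had 0.58 ± 0.29.

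Cat, catalase, which splits hydrogen peroxide in peroxisomes, had signals of 4052 and 4440 against 2504 and 2562. Both NKT-modulated arrays were far below both immature arrays. The change was -0.73 ± 0.08, that is 1.66-fold lower (adjusted p = 0.00255), and the other Cat probe set had -0.84 ± 0.09. Sod2 and Cat were called under all 3 other scalings and with each array left out in turn; without the intensity trend both had adjusted p = 0.0515.

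Prdx2, a cytosolic peroxiredoxin that reduces peroxides with the help of thioredoxin, had signals of 4135 and 4734 against 3561 and 3563. The arrays were apart, with a change of -0.32 ± 0.08 (1.25-fold lower, adjusted p = 0.0465), close to the threshold. The call was lost after median scaling (change -0.13, adjusted p = 0.408), after cyclic loess (-0.27, 0.0903), without further normalization (-0.31, 0.120) and when p was adjusted over all probe sets (adjusted p = 0.0542). It was also lost without immature replicate 1 or 2 (changes -0.35 and -0.29, adjusted p = 0.0871 and 0.140) and without NKT-modulated replicate 1 or 2 (-0.28 and -0.35, adjusted p = 0.215 and 0.138). Prdx4, the peroxiredoxin of the endoplasmic reticulum, had -0.27 ± 0.08 (adjusted p = 0.0760). Its other probe sets had -0.11 ± 0.12 and 0.41 ± 0.17, the latter in a set that can also bind related transcripts. The mean of all 3 gave 0.01 (adjusted p = 0.976), so Prdx4 has no settled direction. Prdx3, the mitochondrial peroxiredoxin, had -0.03 ± 0.10.

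The glutathione peroxidases were not called. Gpx1, the abundant cytosolic form, had signals of 8245 and 7696 against 7483 and 6753 and a change of -0.21 ± 0.08 (adjusted p = 0.153). Gpx3, the secreted form, had 299.6 and 370.8 against 425.5 and 349.0, overlapping before normalization, and a change of 0.39 ± 0.15 (adjusted p = 0.152). Gpx4, which reduces lipid peroxides and is read by a probe set that can also bind related transcripts, had a change of 0.03 ± 0.07. Sod1, the copper-zinc dismutase of the cytosol, had 0.09 ± 0.08 with an interval of -0.11 to 0.30. Sod3, the extracellular dismutase, had signals of at most 28.0 on any array and a change of -0.61 ± 0.31 (adjusted p = 0.264).

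Subunits of the phagocyte NADPH oxidase were not called: of 4 members, 0 passed limma's adjusted threshold, and 1, Ncf4, had an unadjusted p under 0.05. Cybb, the catalytic subunit gp91phox, had signals of 2070 and 1776 on the immature arrays against 1724 and 2299 on the NKT-modulated ones. These overlap, and the change was 0.13 ± 0.19 (interval -0.33 to 0.59, adjusted p = 0.728). Cyba, the membrane partner p22phox, had 7922 and 7921 against 8087 and 8092, nearly level, and a change of -0.01 ± 0.08 (interval -0.20 to 0.18). Ncf1 and Ncf4, cytosolic subunits that join the complex on activation, had changes of -0.06 ± 0.10 and -0.23 ± 0.08 (adjusted p = 0.783 and 0.126). For Ncf4 both NKT-modulated arrays (3808 and 3766) were below the immature ones (4055 and 4747).

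Of 7 measured metal genes 1, Mt2, rose, and the median change was 0.25. Mt2 had signals of 4296 and 4535 on the immature arrays against 6511 and 6925 on the NKT-modulated ones, without overlap. The change was 0.57 ± 0.09 (1.48-fold, adjusted p = 0.0117); without NKT-modulated replicate 2 it was 0.47 with adjusted p = 0.0710. Mt1, the neighbouring metallothionein gene, had 3477 and 4370 against 5328 and 4191, overlapping before normalization. Its change was 0.25 ± 0.11 (interval -0.03 to 0.52, adjusted p = 0.225; the mean over both Mt1 probe sets, the other of them dim, gave -0.18). The difference between the changes of Mt1 and Mt2 was not tested.

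Slc30a1, the zinc exporter of the plasma membrane and a textbook target of MTF1 like the metallothioneins, was dim, with signals of 207.7 and 150.9 against 237.8 and 242.9. Both NKT-modulated arrays were the higher ones, with a change of 0.60 ± 0.22 (adjusted p = 0.144). Slc39a4, a zinc importer, had 292.2 and 266.7 against 338.8 and 324.1 and a change of 0.44 ± 0.16 (adjusted p = 0.142). The other importers, Slc39a1, Slc39a14 and Slc39a8, had changes of 0.18 ± 0.12, -0.13 ± 0.12 and -0.29 ± 0.22, none of them called. The direction turned with the probe set for Slc39a14, whose second set had 0.67 ± 0.24 (mean of both 0.27, adjusted p = 0.249), and for Slc39a8, whose second, dim set had 0.63 ± 0.26 (mean 0.17, adjusted p = 0.674).

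The upstream windows of Mt2, Mt1 and Slc30a1 are shown because the 3 genes share a known metal-responsive factor and had changes above 0, of which that of Mt2 was called. Mt2 lies 6471 bases before Mt1 by annotated start, with 0 other genes starting between them. The windows are chr8:94172368-94172617, chr8:94178839-94179088 and chr1:191906531-191906780 in that order, 250 bases each from RefSeq on GRCm38.p6, plus strand, 5′ to 3′. Capitals mark TGCACNC or TGCGCNC on either strand, the core of an MRE.
Mt2: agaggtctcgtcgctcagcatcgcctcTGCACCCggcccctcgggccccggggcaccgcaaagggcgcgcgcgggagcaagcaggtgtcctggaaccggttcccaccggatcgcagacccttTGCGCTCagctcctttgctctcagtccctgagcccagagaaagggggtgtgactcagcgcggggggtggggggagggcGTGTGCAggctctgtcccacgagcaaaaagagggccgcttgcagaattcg
Mt1: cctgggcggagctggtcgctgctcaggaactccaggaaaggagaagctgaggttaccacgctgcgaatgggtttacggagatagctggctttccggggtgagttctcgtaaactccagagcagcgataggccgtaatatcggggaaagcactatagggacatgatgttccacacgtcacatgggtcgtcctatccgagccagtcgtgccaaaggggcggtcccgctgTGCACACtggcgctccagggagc
Slc30a1: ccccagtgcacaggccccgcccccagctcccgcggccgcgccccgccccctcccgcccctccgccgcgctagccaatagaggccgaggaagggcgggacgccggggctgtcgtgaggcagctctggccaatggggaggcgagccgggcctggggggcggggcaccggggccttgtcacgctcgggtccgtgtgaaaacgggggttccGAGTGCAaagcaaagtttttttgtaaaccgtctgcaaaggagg
The core occurred 3 times in the Mt2 window, 223, 128 and 50 bases before the start, and once in each of the others, 23 bases before the start of Mt1 and 43 before that of Slc30a1. How many matches a window holds depends on where RefSeq sets the start. Whether the annotated start of Mt1 is its main one was not checked, and its window may miss further matches. The counts of these windows are therefore not comparable between the genes. The motif is short: 21.4% of all windows held it, counted by gene 23.8%, and so did 10 of the 37 members with a window and 3 of the 8 called, Srxn1, Glrx and Mt2.

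**Figure D3:**
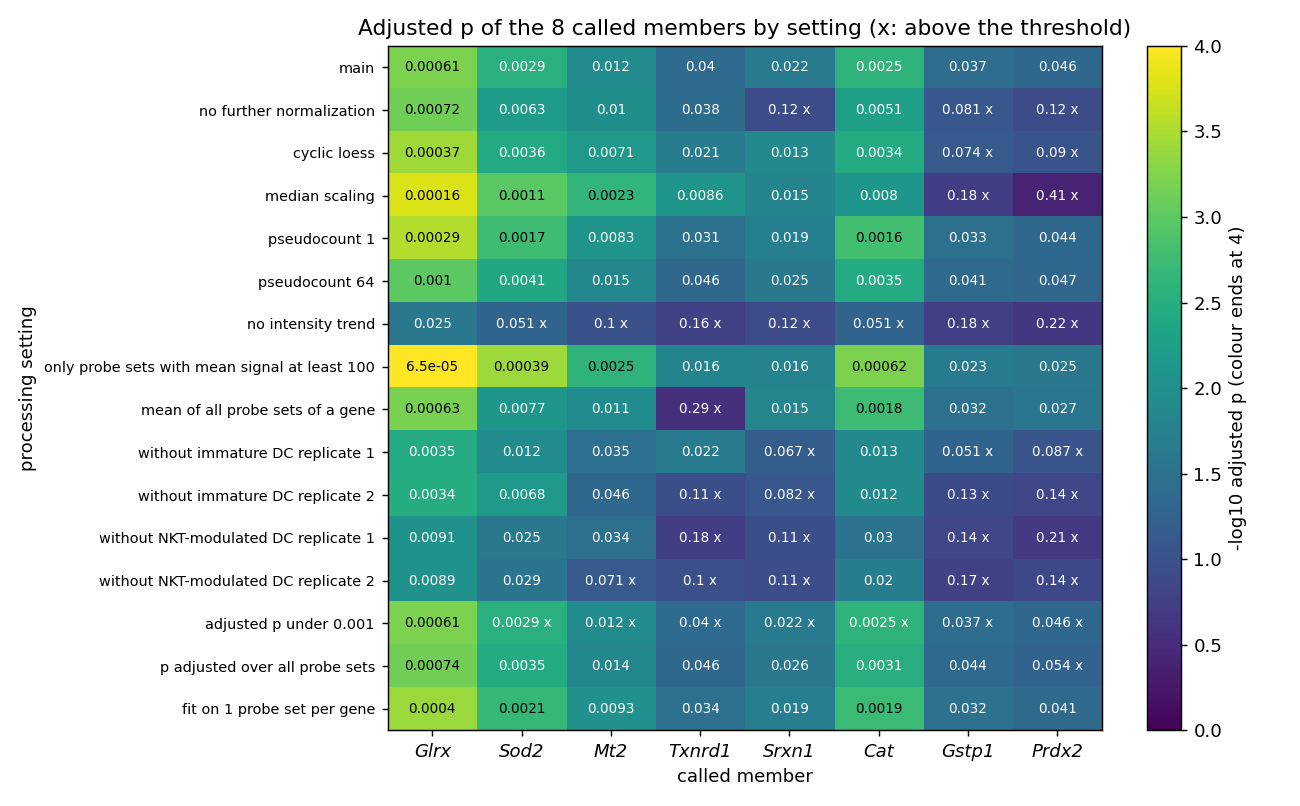
Adjusted p of the 8 called members (columns) under the setting reported here and 15 others (rows); colour is -log10 of the adjusted p and x marks values above the threshold. Glrx has no x in any row, Sod2 and Cat have 2 each, and Gstp1 and Prdx2 have 9 and 10.

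The further genes of these pathways, taken from lists that hold no member, moved in both directions. Of 18 other NRF2 targets measured, 2 rose (11.1%, beside 6.35% of all genes) and 5 fell (27.8%, beside 7.63%), with a median of -0.20. Idh1, which makes NADPH in the cytosol, had signals of 4050 and 4357 against 1456 and 1725, and fell by 1.35 ± 0.11 on the log2 scale. Pgd, an NADPH-producing enzyme of the pentose phosphate pathway, and Ugdh, which makes UDP-glucuronic acid, had -0.40 ± 0.07 and -0.40 ± 0.08. Sqstm1, the autophagy adaptor p62 that competes for KEAP1, had 0.39 ± 0.08. Leaving out any 1 of the 4 arrays ended the calls of Pgd (changes -0.41 to -0.38, adjusted p = 0.0524 to 0.114) and Ugdh (-0.43 to -0.37, adjusted p = 0.0804 to 0.152). That of Sqstm1 ended with immature replicate 2 left out and with either NKT-modulated array left out (0.33 to 0.45 over all 4 fits, with adjusted p up to 0.143). Without further normalization Sqstm1 and Pgd were not called (adjusted p = 0.0558 and 0.0638), nor were Pgd and Ugdh after median scaling (0.283 and 0.0846). After median scaling 2 of the 18 rose and 2 fell, so the surplus of falls depends on the scaling.

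Of 11 genes listed as NRF2 partners and repressors, 2 rose (18.2%, beside 6.35% of all genes) and 0 fell. Maff, a small MAF protein of the kind that pairs with NRF2, rose by 0.91 ± 0.11, from signals of 644.6 and 737.3 to 1115 and 1255. Prdm1 rose by 2.43 ± 0.12, from 283.1 and 308.2 to 1629 and 1376; it encodes BLIMP-1, a transcriptional repressor known from lymphocytes and myeloid cells and not as a partner of NRF2. Both kept their calls with each array left out in turn.

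Of 17 other glutathione genes 1 rose (5.88%, beside 6.35% of all genes) and 4 fell (23.5%, beside 7.63%). Hagh and Glo1, the glyoxalases that use glutathione to clear methylglyoxal, had -0.64 ± 0.10 and -0.67 ± 0.12, and Lancl1, a glutathione-binding protein, had -0.69 ± 0.13. Ggct, which cleaves gamma-glutamyl amino acids, had 0.88 ± 0.15. Hagh lost its call with immature replicate 1 left out or with either NKT-modulated array left out (adjusted p up to 0.0639), Glo1 without immature replicate 1 or NKT-modulated replicate 1 (up to 0.0925), Ggct with either NKT-modulated array left out (up to 0.0771) and Lancl1 whichever of the 4 arrays was left out (0.0522 to 0.0915). The mean of all probe sets of a gene gave 0.44 for Ggct (adjusted p = 0.246) and -0.52 for Lancl1 (adjusted p = 0.126), neither called, and without further normalization Ggct had 0.70 (adjusted p = 0.0553).

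Of 22 other thioredoxin and peroxide genes, 3 were called in each direction (13.6% each, beside 6.35% of all genes higher and 7.63% lower). Sesn1, a sestrin, fell by 1.40 ± 0.20, Msrb1, which repairs oxidised methionine, fell by 1.06 ± 0.16, and Oxr1, an oxidation resistance gene, fell by 1.00 ± 0.12. Ero1a, the oxidase that drives disulfide formation in the endoplasmic reticulum, rose by 0.99 ± 0.11. All 4 kept their calls with each array left out in turn. Among 12 other NADPH oxidase and nitric oxide genes 2 fell (16.7%, beside 7.63% of all genes). Rac2, a GTPase of the oxidase complex, had -0.39 ± 0.08, and Arhgdib, which holds GTPases of that kind inactive, had -0.45 ± 0.08. Rac2 lost its call whichever array was left out (adjusted p = 0.0752 to 0.163) and Arhgdib with immature replicate 2 left out or with either NKT-modulated array left out (up to 0.114); after median scaling neither was called, and without further normalization Rac2 was not (adjusted p = 0.0529).

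Of 23 other zinc and copper genes, 3 were called higher (13.0%, beside 6.35% of all genes) and 1 lower (4.35%, beside 7.63%), with a median of 0.16. Slc30a4, a zinc transporter of endosomal membranes, had the steepest rise, from signals of 1478 and 1596 to 4675 and 5174, by 1.71 ± 0.10 (adjusted p = 3.44e-04). Slc31a1, the copper importer CTR1, rose by 1.06 ± 0.14. Slc11a2, the divalent metal transporter DMT1, had 0.73 ± 0.14, and Slc39a11, a zinc transporter, had -0.52 ± 0.10. Slc30a4 and Slc31a1 kept their calls with each array left out in turn. Slc11a2 lost its call with either immature array left out or with NKT-modulated replicate 2 left out (adjusted p up to 0.107), without further normalization (0.0679) and with the mean of all its probe sets (0.0506), and Slc39a11 with immature replicate 1 left out or with either NKT-modulated array left out (up to 0.120).

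**Figure D4:**
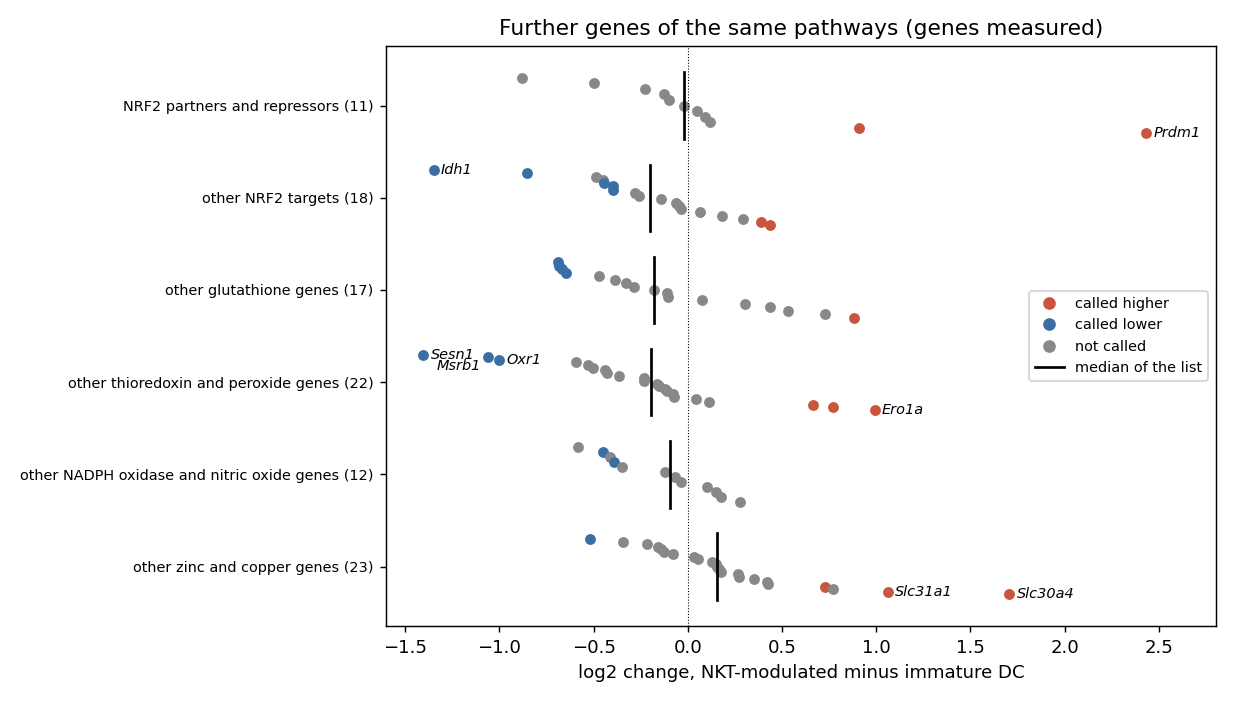
Log2 change (horizontal axis, NKT-modulated minus immature DC) of further genes of the same pathways, 1 point per gene and 1 row per list, with the number of genes measured in brackets, calls by colour and the list median as a black line. Prdm1, Slc30a4, Slc31a1 and Ero1a lie furthest to the right and Sesn1, Idh1, Msrb1 and Oxr1 furthest to the left.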

How the data were processed

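RNA of 2 immature and 2 NKT-modulated DC samples was hybridised to Affymetrix mouse arrays. The deposited table holds intensities on a linear scale, as the signal of a probe set on each array. The authors analysed the images with GCOS, per the submitters' processing notes; neither its version nor the summary method or scaling is given in the sources used here. The table has 22690 rows; 64 control probe sets were left out. The values log2(signal + 16) were quantile normalized over the other 22626, since array quartiles differed by up to 0.27, and fitted with limma 3.58.1 in R 4.3.3 (lmFit, eBayes with intensity trend, two-sided; 2 residual and 4.13 prior degrees of freedom). Fold changes of dim genes are understated by the pseudocount. Probe sets were named through the platform's annotation: 20380 had 1 symbol, 691 several and 1555 none; symbols of 20351 were updated by gene ID through RefSeq (GRCm38.p6). Each probe set has its own response, so signals of different probe sets are not comparable as levels. The summed marker signals are therefore weighted towards bright probe sets. Besides Gstm1, Gsto1 and Gpx4, the brightest sets of Srxn1, Mt1, Gclc, Idh1, Pgd, Sesn1, H2-Ab1 and S100a8 are of types that can also bind other transcripts. The median signal of an array was 129.0 to 158.1, Pearson's r across probe sets 0.985 and 0.987 within and 0.960 to 0.965 between groups. Precision is limited by there being 2 arrays a group.

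The members, lists and tests were chosen with earlier results of these data known. Full values were given for called members and 6 chosen readouts, and up to 4 called genes with the smallest p per further list. The steps were tested on simulated data. Alternatives covered scaling, pseudocount, variance trend, dim probe sets, probe set choice, threshold and each array left out; adjusting over all probe sets and fitting 1 probe set per gene were added after seeing the data.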

Additional observations from a re-analysis of the deposited data

How the results depend on the processing

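Of the 8 called members 1, Glrx, was called under all 15 alternatives, and no called member changed sign under any of them. Members called higher numbered 1 without the intensity trend and 1 at an adjusted p under 0.001, the figure in the design text, and 2 to 4 with 1 array left out, against 5. Members called lower numbered 1 without further normalization, 1 after cyclic loess, 1 after median scaling, 0 without the intensity trend, 0 at an adjusted p under 0.001 and 1 with any 1 array left out, against 3. At that stricter threshold limma's unadjusted p was under 0.05 for 7 lower members. Over all genes, calls fell to 430 higher and 333 lower without the intensity trend, to 137 and 29 at the stricter threshold, and to between 453 and 555 higher and 372 and 470 lower with 1 array left out. Pseudocounts of 1 and 64 kept all 8 calls. The causes were not tested. The mean of all probe sets turned the sign of Gpx4, Gstm1, Keap1, Mt1, Ncf1, Prdx4, Slc39a14, Slc39a8, Sod1 and Txnip, and at least 1 other scaling that of Cyba, Gpx1, Gsto1, Keap1, Ncf1, Prdx3 and Txn2, none of them called under any of these. No paired analysis was possible because the labels give the groups no shared replicate numbers: each title carries an array number of its own, and replicates 1 and 2 are names given here in the order of the samples. Gsta3, Gsta4 and Sod3, with signals of at most 43.4 on any array, were too dim to give a direction.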
